A study of Arabidopsis thaliana with 6 samples.

Results

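The NADPH oxidases of the RBOH family (respiratory burst oxidase homologues) were followed in sorted Arabidopsis thaliana pollen. Its members were the 10 genes RBOHA to RBOHJ, taken by locus identifier from the 33602 genes counted in each library, and all 10 had at least 1 count somewhere in the series. RBOH proteins sit in the plasma membrane and pass electrons from cytosolic NADPH to oxygen outside the cell, which yields superoxide and, after dismutation, hydrogen peroxide. Calcium-binding EF hands and phosphorylation control their activity. In growing pollen tubes RBOHH (AT5G60010) and RBOHJ (AT3G45810) act at the tip, downstream of the ANX receptor kinases, and tubes lacking both oxidases tend to burst. The other members are known mainly from sporophytic tissue, such as RBOHD in immunity and RBOHC in root hairs.

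Pollen came from plants of accession Col with the genotype PAPS1 pLat52::RFP / paps1-3, so that all grains of both groups had the same kind of parent. PAPS1 is a poly(A) polymerase of the nucleus, which adds the tails of messenger RNAs. In the written genotype the normal PAPS1 allele stands with the pLat52::RFP transgene, whose promoter drives a red fluorescent protein in the vegetative cell of the grain. Grains were sorted by that fluorescence, and the groups were labelled paps1-3 and wild type, with 3 libraries each lettered A, B and C. The sources used here do not give gates, purity, plant age or plant number. No label ties the letters to separate plants, so the p-values describe variation among these libraries that may be purely technical.

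Libraries held 19861313 to 41176647 gene counts, paps1-3 C being the smallest, and at least 1 count was found for 24587 to 30343 genes in paps1-3 and 16869 to 19668 in wild type. PAPS1 (AT1G17980) had 32, 25 and 20 counts in wild-type A, B and C, and its paps1-3 counts were 18, 9 and 3 (log2 fold change −2.61 ± 0.57 SE, adjusted p = 0.000273 by edgeR, and −1.36 by totals, adjusted p = 0.0454 by edgeR). PAPS1 could pass the filter on low counts only through the wild-type libraries, so these p-values add no separate support. The 4 markers of the pollen vegetative cell were present in both groups, with a summed level of 9970 to 12720 CPM in paps1-3 and 24500 to 26990 CPM in wild type, or 16730 to 18820 against 16490 to 16740 by library totals. Nearly all of that sum was VGD1, whose log2 fold change was −1.35 on the TMM scale and −0.11 on that of totals, while VEX1, PPME1 and TIP1;3 rose, by 1.78, 1.22 and 2.71 on the log2 scale by TMM. Levels are CPM, counts brought to a common library size, on library sizes scaled by TMM, a method that assumes most genes do not change. TMM factors ranged from 1.47 to 1.68 for paps1-3 libraries but from 0.61 to 0.67 for wild-type ones, which moved the median log2 fold change of all 14273 tested genes from 1.62 by library totals to 0.37. Fold changes of tested RBOH genes and pooled ratios of untested ones are therefore given by both scalings.

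RBOHH was the leading NADPH oxidase of pollen in both groups. Its counts were 7386, 6745 and 7952 in wild-type A, B and C and 17013, 18126 and 8783 in paps1-3 A, B and C. Scaled by TMM, these were 349, 306 and 344 CPM in wild type and 276, 298 and 300.5 CPM in paps1-3. All 3 paps1-3 libraries thus lay just under the wild-type ones, but the difference did not pass the test. The mean was 333 ± 23.6 CPM in wild type and 291 ± 13.2 CPM in paps1-3 (SD, n = 3 each), a log2 fold change of −0.19 ± 0.12 (SE, adjusted p = 0.158 by edgeR), with bounds at 2 standard errors of −0.44 and 0.05. By library totals the order of the groups turned around. RBOHH then stood at 216 ± 13.5 CPM in wild type and 449 ± 13.0 CPM in paps1-3, a log2 fold change of 1.05 ± 0.10 (adjusted p = 4.66e-08 by edgeR), again with no overlap between groups. Whether RBOHH transcripts differed between the groups is thus set by the scaling.

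Relative to other genes RBOHH lay below the middle of all tested genes but above the middle of abundant ones. Against the median tested gene its log2 fold change was −0.57 under both TMM and totals, and 38.2% of tested genes lay below it. The 1000 genes with the highest mean CPM over all 6 libraries had their median at −1.32 on the TMM scale and −0.08 on that of totals, and the log2 fold change of RBOHH exceeded 79% of theirs. When all 32827 genes with an annotated exon length were ordered by count per kilobase, an order within a library that no scaling changes, RBOHH was number 663, 715 and 689 in wild-type A, B and C and number 475, 499 and 500 in paps1-3. All 3 paps1-3 libraries therefore placed it nearer the top than the wild-type libraries did.

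RBOHJ, the other oxidase of the pollen tube tip, rose in paps1-3 under both scalings. It had 575, 788 and 727 counts in wild-type A, B and C and 2888, 3208 and 1407 in paps1-3. These were 27.2, 35.7 and 31.5 CPM in wild type and 46.9, 52.6 and 48.1 CPM in paps1-3 on the TMM scale. The lowest paps1-3 library was above the highest wild-type library. By TMM its log2 fold change came to 0.65 ± 0.14 (SE, edgeR adjusted p = 0.000199) and by totals to 1.89 ± 0.13 (edgeR adjusted p = 1.09e-09). The TMM value lay 0.27 above the median tested gene, with 55.0% of tested genes below it. Among the 1000 most abundant genes 90.7% lay below it. Its place by count per kilobase was 2979, 2579 and 2774 in wild type and 1769, 1758 and 1869 in paps1-3.

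**Figure D1:**
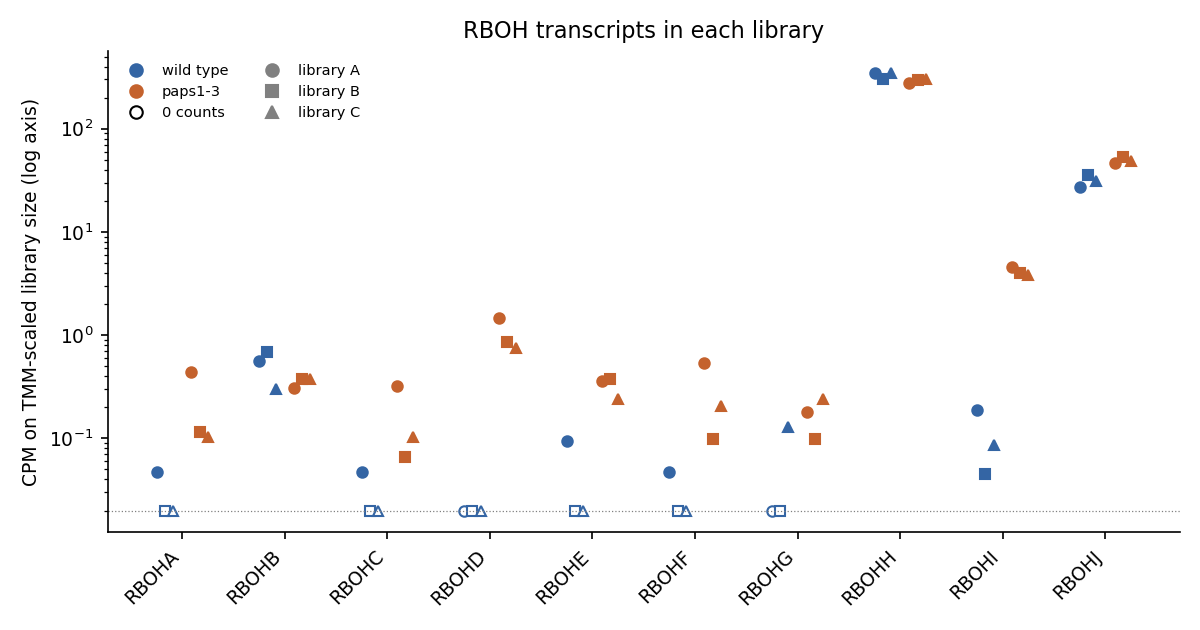
Level of each RBOH gene in each of the 6 libraries, in CPM on the TMM-scaled library size (log axis), with wild type in blue, paps1-3 in orange, and circles, squares and triangles for libraries A, B and C; open symbols on the dotted line are libraries with 0 counts. RBOHH and RBOHJ lie far above the rest, and RBOHD and RBOHI show the widest gap between the groups.

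The balance between both pollen forms differed between the groups, in a measure that no scaling affects. The ratio of RBOHH to RBOHJ counts was 12.8, 8.56 and 10.9 in wild-type A, B and C and 5.89, 5.65 and 6.24 in paps1-3 A, B and C. The lowest wild-type library was thus above the highest paps1-3 library. The mean log2 ratio was 3.41 ± 0.29 in wild type and 2.57 ± 0.07 in paps1-3 (SD, n = 3 each), a difference of −0.84 (two-sided exact permutation p = 0.1, the smallest that 3 against 3 libraries allow). Leaving out any 1 library gave differences of −1.0 to −0.71. Since exon lengths were alike, at 3144 bases for RBOHH and 3119 for RBOHJ, the ratio per kilobase was nearly the same, 8.49 to 12.7 in wild type and 5.61 to 6.19 in paps1-3. To gauge whether reads of one gene could be counted for another, exon sequences were compared: no 50-base window of the exons of any member occurred in another member, and the longest identical stretch between RBOHH and RBOHJ was 40 bases in the RefSeq annotation of assembly TAIR10.1.

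The 8 other members together made up a small part of the family's transcripts. They held 21, 16 and 12 counts in wild-type A, B and C and 507, 367 and 172 in paps1-3. Their share of all RBOH counts was 0.263% (exact 95% binomial interval 0.163 to 0.402), 0.212% (0.121 to 0.344) and 0.138% (0.0714 to 0.241) in wild type. In paps1-3 it was 2.48% (2.28 to 2.71), 1.69% (1.52 to 1.87) and 1.66% (1.42 to 1.93), above every wild-type library. These intervals cover counting error only and leave out variation between libraries. The reads carry no molecular identifiers, so repeated copies of 1 molecule are counted as separate ones. RBOHH and RBOHJ correspondingly supplied 99.8% ± 0.06 of the family's counts in wild type and 98.0% ± 0.47 in paps1-3 (SD, n = 3 each). No test was made of these shares, because the genes were chosen with results of these data known. All 10 members had a count in each paps1-3 library, against 8, 4 and 5 in wild-type A, B and C, and the numbers were the same after thinning every library to 19861313 counts. Of all 33602 genes, 24587 to 30343 had a count in the paps1-3 libraries and 16869 to 19668 in the wild-type ones, before thinning. With that background the number of members with a count says little about the family.

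**Figure D2:**
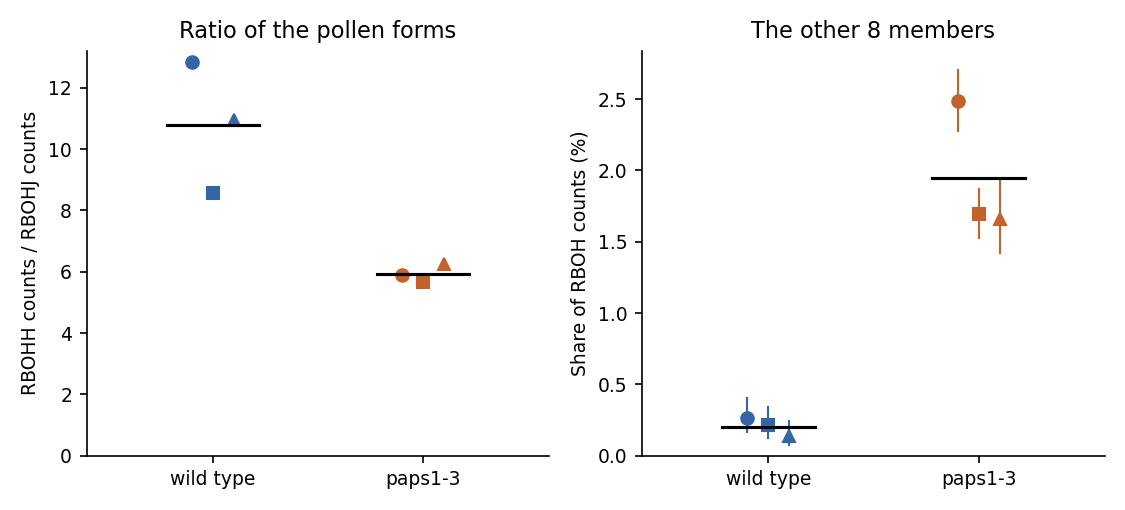
Left, RBOHH counts divided by RBOHJ counts, and right, the share of all RBOH counts that came from the 8 other members, per library (circle, square and triangle for A, B and C; vertical lines at right are exact 95% binomial intervals, horizontal bars are group means). The ratio lies between 5.65 and 6.24 in paps1-3 and between 8.56 and 12.8 in wild type, and the share is 1.66% to 2.48% against 0.138% to 0.263%.

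Of the 10 members 6 had enough counts to be tested. By TMM 4 of them (RBOHD, RBOHE, RBOHI and RBOHJ) were higher in paps1-3, 0 were lower and RBOHB and RBOHH did not pass, where 42.3% of all tested genes were called higher and 29.9% lower. RBOHB and RBOHH, whose log2 fold changes were negative by TMM, had unadjusted p of 0.344 and 0.126 in edgeR, and DESeq2 called 0 members lower as well. By totals 5 were higher, RBOHH being the addition, where 70.2% of all tested genes were called higher and 9.72% lower. With so large a background, and with a filter that low genes could pass only through the paps1-3 libraries, the number of rising members says little about the family. On TMM levels 4 of the 6 tested members lay wholly above wild type (44.0% of tested genes did) and RBOHH wholly below (31.5%), and by totals all 6 lay above (71.2%, against 10.5% below).

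RBOHI (AT4G11230), a member with no well-established role, showed the clearest gain. Wild-type A, B and C held 4, 1 and 2 of its counts, and the paps1-3 libraries 284, 246 and 113. On the TMM scale this was 4.17 ± 0.39 CPM against 0.107 ± 0.074 CPM (SD, n = 3 each). Every paps1-3 library lay above every wild-type library, and the 3 paps1-3 libraries were close to one another, at 4.61, 4.04 and 3.87 CPM. By TMM it rose by 5.26 ± 0.41 on the log2 scale (SE, edgeR adjusted p = 5.16e-11), by totals by 6.49 ± 0.40 (edgeR adjusted p = 2.17e-10). It passed the filter on low counts through the paps1-3 libraries alone, so these p-values add no separate support. RBOHI supplied 643 of the 1046 counts of the 8 other members in paps1-3, or 61.5%, against 7 of 49 in wild type.

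RBOHD (AT5G47910), the oxidase behind the oxidative burst of immune signalling in leaves, was counted in paps1-3 alone. Libraries A, B and C of paps1-3 held 91, 52 and 22 of its counts, or 1.48, 0.853 and 0.753 CPM by TMM, and 0 counts in each wild-type library. Set against a floor of 3 counts over the wild-type group, its pooled level was at least 24.0-fold higher in paps1-3 by TMM and at least 57.6-fold by totals. It passed the test under both scalings (adjusted p = 1.73e-06 by TMM and 1.59e-06 by totals in edgeR). However, RBOHD entered that test through the paps1-3 libraries alone, so these p-values add no separate support. Its fitted log2 fold change of 8.24 ± 1.16 depends on how a count of 0 is treated.

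RBOHE (AT1G19230), which in anthers acts in the timed death of the tapetum, rested on few counts. Of its counts wild-type A, B and C held 2, 0 and 0, against 22, 23 and 7 for paps1-3. All 3 paps1-3 libraries were above all wild-type ones (0.325 ± 0.075 against 0.032 ± 0.055 CPM by TMM, SD, n = 3 each). It rose by 3.31 ± 0.90 on the log2 scale by TMM (SE, edgeR adjusted p = 0.00233) and by 4.46 ± 0.87 by totals (0.000181), but the TMM call was lost without wild-type B (2.70, adjusted p = 0.0554 by edgeR) and without wild-type C (2.68, adjusted p = 0.0516 by edgeR). Without wild-type A, the library that holds the 2 wild-type counts, the fitted value was 6.69. Like RBOHI and RBOHD, RBOHE passed the filter on low counts through the paps1-3 libraries alone.

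RBOHB (AT1G09090), a member linked to seed after-ripening, was the only one of the 8 for which the TMM level was not higher in paps1-3 on average. It had 12, 15 and 7 counts in wild-type A, B and C and 19, 23 and 11 in paps1-3, which was 0.517 ± 0.194 against 0.354 ± 0.039 CPM by TMM. The groups overlapped, and the log2 fold change was −0.54 ± 0.56 by TMM (adjusted p = 0.393 by edgeR) and 0.68 ± 0.56 by totals (adjusted p = 0.271 by edgeR). In wild type it held 34 of the 49 counts of the 8 other members, or 69.4%. The annotation gives its exons an overlap with those of the proteasome subunit gene RPT5B (AT1G09100). RPT5B itself had 22 to 25 counts in each wild-type library and 19 to 32 in paps1-3, and because the libraries do not mark strand the origin of reads in the shared stretch cannot be told apart.

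**Figure D3:**
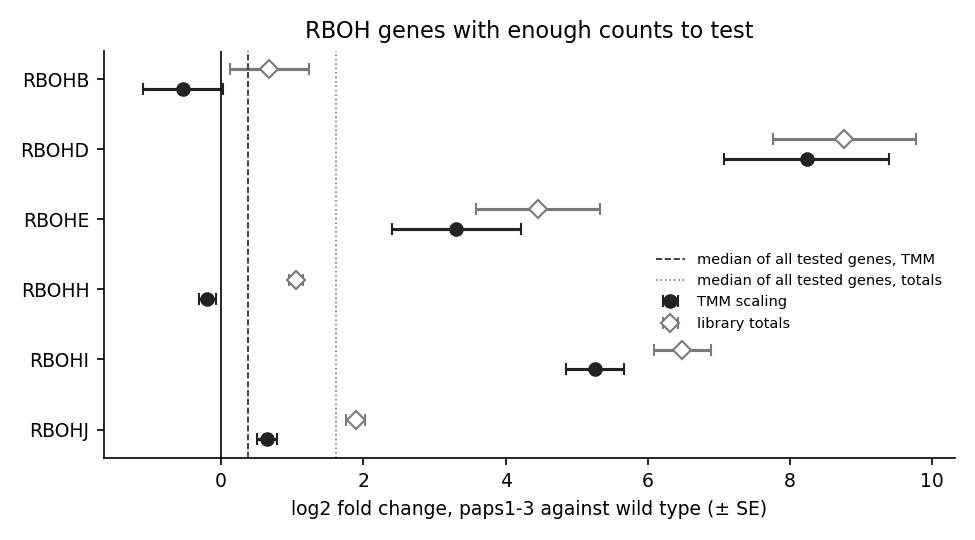
Log2 fold change of the 6 tested RBOH genes, paps1-3 against wild type, with standard errors, by TMM scaling (filled circles) and by library totals (open diamonds); dashed and dotted lines mark the median of all tested genes, 0.37 and 1.62. RBOHH lies at −0.19 and 1.05, RBOHJ at 0.65 and 1.89, and the value of RBOHD is a fitted one against 0 counts in wild type.

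The remaining members, RBOHA, RBOHC, RBOHF and RBOHG, did not reach the filter on low counts and have no test in the main fit. RBOHF (AT1G64060), which shares stress and hormone signalling with RBOHD, had 1, 0 and 0 counts in wild-type A, B and C, compared with 33, 6 and 6 in the paps1-3 libraries. RBOHA (AT5G07390) had 27, 7 and 3 counts against 1, 0 and 0, and RBOHC (AT5G51060), the root hair oxidase also called RHD2, had 20, 4 and 3 against 1, 0 and 0. Paps1-3 A held most of the counts of RBOHF, RBOHA and RBOHC, and this library also had the largest number of genes with a count. The pooled ratio by TMM was 19.7 for RBOHF (exact 95% counting interval 3.35 to 794), 16.2 for RBOHA (2.73 to 656) and 11.8 for RBOHC (1.95 to 483). By totals it was 47.1 for RBOHF (8.04 to 1902), 38.8 for RBOHA (6.54 to 1571) and 28.3 for RBOHC (4.66 to 1158). RBOHG (AT4G25090) had 11, 6 and 7 counts against 0, 0 and 3, a ratio of 3.50 by TMM (1.06 to 18.1) and 8.38 by totals (2.54 to 43.5). Its groups overlapped on the TMM scale, while by totals every paps1-3 library lay above every wild-type one. With no filter on low counts, by TMM, RBOHF passed (3.81 ± 1.46, adjusted p = 0.0290 by edgeR), while RBOHA (adjusted p = 0.0623), RBOHC (0.126) and RBOHG (0.311) did not. RBOHA, RBOHE and RBOHG also have exons that overlap those of a neighbouring gene, so that their few counts are uncertain.

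Measured per kilobase of exon, the order of the family changed below its leading pair. In wild type RBOHH had 106 ± 7.5 CPM per kilobase, RBOHJ 10.1 ± 1.4, RBOHB 0.191 ± 0.072 and RBOHI 0.034 ± 0.023 (TMM, SD, n = 3). The first 4 places did not overlap with their neighbours down to RBOHI, while below RBOHI, from RBOHG through RBOHE, RBOHA, RBOHC and RBOHF to RBOHD, each overlapped with the next. RBOHI itself overlapped with RBOHG next to it. In paps1-3 RBOHH had 92.7 ± 4.2 CPM per kilobase, RBOHJ 15.8 ± 1.0, RBOHI 1.31 ± 0.12 and RBOHD 0.285 ± 0.109, followed by RBOHB at 0.131 ± 0.015 and RBOHE at 0.097 ± 0.022. Neighbours in that order did not overlap down to RBOHE, and the last 5, from RBOHE through RBOHF, RBOHA and RBOHG to RBOHC, overlapped in turn.

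Summed levels of leaf and of guard cell markers were also higher in all paps1-3 libraries than in all wild-type libraries, by TMM and by totals, whereas those of root hair and tapetum markers were not. Single genes of the leaf, root hair and tapetum lists went different ways. Of 4 leaf genes, RBCS1A and LHCB2.1 had 0 counts in wild type, and the summed level of the list was 0.460 to 0.633 CPM in paps1-3 against 0.260 to 0.318 in wild type. CAB1, which held most of the wild-type leaf counts, was lower in each paps1-3 library by TMM (0.144 ± 0.0289 against 0.241 ± 0.0170 CPM, SD, n = 3 each) and higher by totals (0.220 against 0.156 CPM). Of 3 guard cell genes FAMA had 0 counts in wild type, and the sum was 0.246 to 1.23 CPM in paps1-3 against 0 to 0.142. FAMA and TGG1 were each higher in every paps1-3 library than in every wild-type library, and TGG1 gave 58 of the 76 guard cell counts of paps1-3 A. MYB60 levels overlapped between the groups, its counts coming only from paps1-3 A (11), wild-type A (1) and wild-type B (2). The 4 root hair genes, none at 0 in wild type, summed to 0.479 to 1.82 CPM against 1.77 to 1.89, and the 4 tapetum genes, with A9, MS1 and ATA7 at 0 in wild type and A9 at 0 in paps1-3 too, to 0.582 to 1.19 CPM against 1.34 to 2.18. EXPA7 held most of the wild-type root hair counts and AMS all of the wild-type tapetum counts. Of the others, MS1 (10, 1 and 3 counts) and ATA7 (2, 1 and 0 counts) were counted in the paps1-3 libraries alone, and RHD6, COW1 and PRP3 had higher means in paps1-3 by TMM. In bulk RNA a few cells with much of a transcript and many cells with little of it cannot be told apart. The part of such cells in the counts of RBOHD, RBOHI and the other low members was not tested.

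The signalling components linked to pollen tube oxidases were mostly lower in paps1-3 on the TMM scale. All 13 genes of that list were tested, and by TMM 10 fell, 0 rose and 3 did not pass, where 29.9% of all tested genes fell and 42.3% rose (unadjusted p under 0.05 gave 0 higher, and DESeq2 called 0 higher). The list's median change was −2.12 (log2, TMM) and −0.88 (log2, totals), beside 0.37 and 1.62 for all tested genes and −1.32 and −0.08 for the 1000 most abundant genes. RALF4 (AT1G28270) and RALF19 (AT2G33775), secreted peptides read by the receptor kinases, changed by −4.75 ± 0.15 and −2.78 ± 0.14 (SE). LLG2 (AT2G20700), a membrane-anchored partner of these receptors, went from 2056 ± 315 to 329 ± 19.8 CPM (−2.64 ± 0.14), and the calcium-dependent kinase gene CPK24 (AT2G31500) from 10530 ± 922 to 2228 ± 86.7 CPM (−2.24 ± 0.13). These 4 had adjusted p of 2.85e-13 or less in edgeR and fell by totals too.

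The 3 signalling genes that did not pass, singled out after their values were seen, had values near 0 by TMM. ANX1 (AT3G04690), a receptor kinase upstream of the oxidases, was at −0.22 ± 0.13 by TMM, MARIS (AT2G41970), a cytoplasmic kinase downstream of the receptors, at −0.03 ± 0.13, and the calcium-dependent kinase gene CPK11 (AT1G35670) at 0.07 ± 0.13. By totals all 3 rose, by 1.04, 1.20 and 1.32. ANX2 (AT5G28680), the close relative of ANX1 and likewise named after its values were seen, changed by −2.18 ± 0.14 by TMM and −0.93 by totals and fell under both. By totals 7 members of the list fell and 5 rose, where 9.72% of all tested genes fell and 70.2% rose.

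Regulators known to act on RBOH proteins outside pollen were mostly too scarce to test. Only 5 of its 12 genes passed the filter, 4 of them rising and 1 falling under both scalings (42.3% of all tested genes rose by TMM and 70.2% by totals), and the median on the TMM scale was 0.52 (log2). FERONIA (AT3G51550), the receptor kinase related to ANX1 that works in sporophytic cells, had 3, 0 and 1 counts in wild-type A, B and C, and 92, 48 and 22 in paps1-3 (4.0 ± 0.74 SE, adjusted p = 4.76e-05 by edgeR), and it passed the filter through paps1-3 alone. The calcium sensor genes CBL1 (AT4G17615) and CBL9 (AT5G47100), whose proteins with CIPK26 act on RBOHF, rose by 0.84 ± 0.16 and 0.52 ± 0.14 on the log2 scale. SCN1 (AT3G07880), a regulator of ROP GTPases that confines RBOHC activity to sites of root hair growth, was abundant in pollen and fell, from 717 ± 43.0 to 148 ± 16.1 CPM (−2.27 ± 0.13, adjusted p = 1.96e-13 by edgeR). Among the untested genes, the kinase genes CRK2 and CIPK26 had 0 counts in wild type, and in paps1-3 A, B and C they had 13, 5 and 1 (CRK2) and 28, 14 and 4 (CIPK26).

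Enzymes that remove superoxide and hydrogen peroxide moved in both directions. Of 26 genes 19 were tested, and by TMM 11 rose, 5 fell and 3 did not pass, beside 42.3% rising and 29.9% falling among all tested genes. The list's median change was 0.98 (log2, TMM) and 2.24 (log2, totals), against 0.37 and 1.62 for all tested genes. Of the rising genes CSD2, CSD3, sAPX and GPX3 passed the filter through paps1-3 alone, which bears on these counts and medians. So did tAPX, not called by TMM, whose own changes (0.976 by TMM, 2.241 by totals) are the list's medians. The cytosolic superoxide dismutase gene CSD1 (AT1G08830) rose from 1.80 ± 0.38 to 22.4 ± 5.8 CPM (3.63 ± 0.22 SE), the cytosolic ascorbate peroxidase gene APX1 (AT1G07890) by 2.93 ± 0.22 and the glutathione peroxidase-like gene GPX6 (AT4G11600) by 2.30 ± 0.16 on the log2 scale. APX6 (AT4G32320), of the ascorbate peroxidase family, changed the other way, by −2.33 ± 0.22, and was the 1 member that fell by totals as well (−1.07, adjusted p = 0.000542 by edgeR). By totals 13 rose and 1 fell, beside 70.2% and 9.72% of all tested genes. CAT1, CAT3, GPX4 and GPX5, the remaining genes that fell by TMM, were at 0.02, −0.05, 0.42 and −0.22 by totals, where GPX4 rose and the others did not pass.

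Genes that supply NADPH, the electron donor of RBOH enzymes, also moved both ways. Of 16 genes 13 were tested, of which 9 rose, 3 fell and 1 did not pass by TMM, where 42.3% of all tested genes rose and 29.9% fell. By totals 10 rose and 1 fell, where 70.2% of all tested genes rose and 9.72% fell. The list's median change was 1.18 (log2, TMM) and 2.42 (log2, totals), against 0.37 and 1.62 for all tested genes. NADK1, with 2, 1 and 0 counts in wild-type A, B and C, passed the filter through paps1-3 alone. G6PD3 (10, 3 and 6) and G6PD5 (5, 9 and 13) did so too. The cytosolic isocitrate dehydrogenase gene cICDH (AT1G65930) rose from 4.36 ± 0.48 to 27.3 ± 6.0 CPM (2.64 ± 0.18 SE), the cytosolic glucose-6-phosphate dehydrogenase gene G6PD6 (AT5G40760) by 2.38 ± 0.23 and the malic enzyme gene NADP-ME3 (AT5G25880) by 1.87 ± 0.16 on the log2 scale. NADP-ME4 (AT1G79750), the plastid malic enzyme, fell from 119 ± 7.9 to 28.4 ± 4.6 CPM (−2.07 ± 0.14, adjusted p = 3.92e-12 by edgeR) and was the 1 gene that fell by totals. The FRO family of ferric reductases, membrane enzymes that share the electron-transfer core of RBOH proteins, was scarce. Of 8 genes 2 were tested, FRO4 (AT5G23980) rising by 1.18 ± 0.27 on the log2 scale (adjusted p = 0.000554 by edgeR) and FRO3 (AT1G23020) changing by −0.93 ± 0.32 (adjusted p = 0.0111 by edgeR), the latter at 0.33 by totals and not called there.

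**Figure D4:**
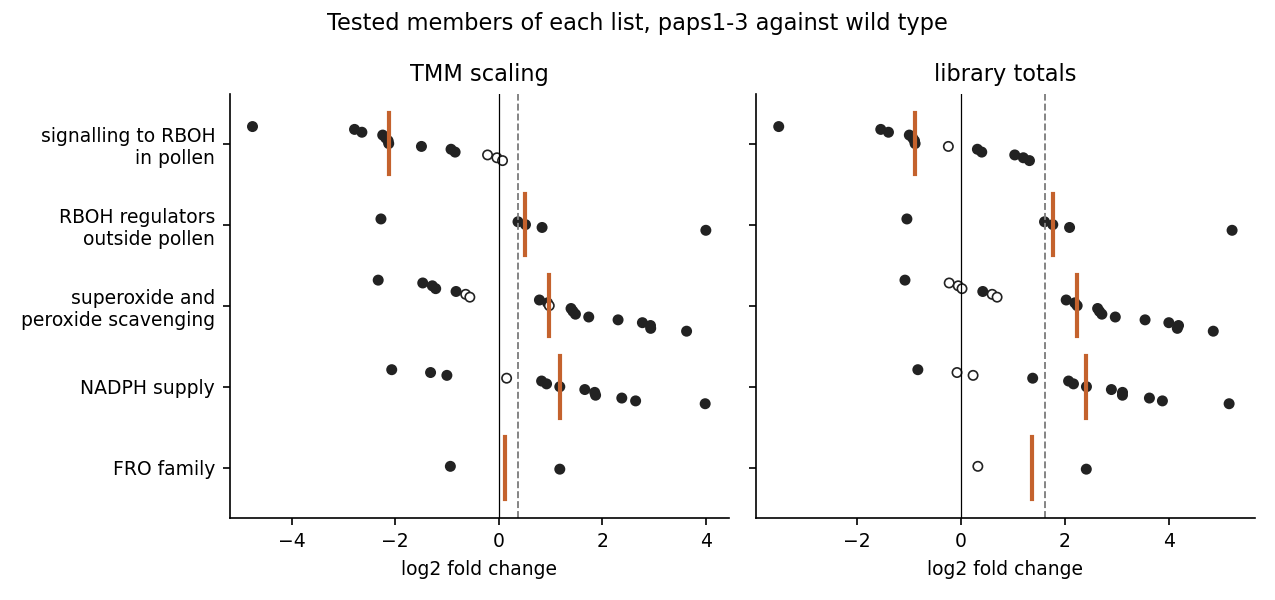
Log2 fold change of the tested members of 5 lists around the RBOH enzymes, paps1-3 against wild type, by TMM (left) and library totals (right); filled circles passed an adjusted p of 0.05, orange bars are list medians, and the dashed line is the median of all tested genes. The pollen signalling list has its median at −2.12 and −0.88, to the left of the dashed line in both panels.

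Other genes followed RBOHH and RBOHJ closely across the 6 libraries. Likeness was the root mean square difference of log2 CPM profiles, each centred on its own mean, among 4204 other genes of sufficient level, in which scaling factors nearly cancel. Nearest to RBOHH were AT2G26490, a WD40 repeat protein gene (difference 0.035), AT1G19860, a CCCH zinc finger gene (0.043), and BZIP28 (AT3G10800), a membrane-tethered transcription factor (0.049). Nearest to RBOHJ were AT3G03430, an EF-hand calcium-binding protein gene (0.056), AT4G11570, a hydrolase gene (0.075), and AT1G31175, described as a cytochrome c oxidase biogenesis protein gene (0.083). RBOHJ itself was number 1860 in the order of likeness to RBOHH (0.457).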

How the data were processed

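The authors deposited 1 table of raw gene counts per library, made with TopHat2 and HTSeq on TAIR10 according to the submitters' processing notes. Their versions, options and annotation are not known here. Libraries came from an amplification kit for total RNA and were read in pairs of 101 and 99 bases, per the labels' protocols. Of all entries 1.18% to 1.88% had no feature, 2.24% to 2.64% were ambiguous and 5.30% to 11.6% lay at several positions; these stayed out of library sizes and tests. Gene names and exon lengths came from the RefSeq annotation of TAIR10.1, a later release, so no coordinates or sequences are printed.

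All genes were fitted together in edgeR 4.0.16 (R 4.3.3, robust quasi-likelihood test, TMM, genotype as the only term, filterByExpr with minimum count 10 and minimum total 15). Calls used Benjamini-Hochberg adjusted p below 0.05 over 14273 genes. A floor of 3 counts replaced groups at 0. Within groups, replicate pairs differed beyond sampling noise. Alternatives were library totals, RLE factors, DESeq2 1.42.0, other filters, the letter as a term, no organelle genes and leaving out each library.

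Members, lists and tests were chosen with earlier results of these data known. Named genes were the 10 members, up to 4 called genes of smallest p per list and the 3 nearest profiles of RBOHH and RBOHJ, chosen among genes whose log2 CPM averaged 3 or more.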

Additional observations from a re-analysis of the deposited data

How the results depend on the processing

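The largest dependence was on scaling. By library totals 10018 genes were higher and 1387 lower, against 6037 and 4272 by TMM. RBOHH moved to 1.05 and RBOHB, called under neither scaling, to 0.68. The pollen signalling list then had 5 higher, the scavenging list 1 lower, NADPH supply 1 lower and the FRO list 0 lower. With no filter on low counts 7 of the 12 regulators outside pollen and 3 of the 8 FRO genes were higher, where 6970 of all 31633 fitted genes were.

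Leaving out each library in turn gave 5636 to 6426 genes higher and 4073 to 4287 lower, RBOH members from 3 to 5 higher and 0 lower, RBOHH from −0.31 to −0.13, RBOHJ from 0.49 to 0.70, RBOHD from 7.67 to 8.43, RBOHI from 4.85 to 5.84, the log2 ratio of RBOHH to RBOHJ from −1.0 to −0.71 and the pollen forms' share from −1.88 to −1.47 percentage points. Regulators outside pollen had 4 to 7 higher, scavenging 9 to 11 and NADPH supply 7 to 10; the 7 regulators came without wild-type A. RBOHE lost its call without wild-type B (2.70) or C (2.68). Other alternatives left the direction and call of RBOHH and RBOHJ as reported, from −0.28 to −0.05 and from 0.56 to 0.79.

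Libraries of the same letter had correlated deviations of 0.231 (A), 0.0989 (B) and 0.0755 (C), each highest with its own letter. The labels do not say that the letters pair libraries, so pairing is not established. With the letter as a replicate block RBOHH was at −0.19 (adjusted p = 0.137 by edgeR) and RBOHJ at 0.65, and no RBOH call changed. Depth limits RBOHA, RBOHC, RBOHF and RBOHG, with 1 to 3 counts in all wild-type libraries together.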
